A study of Homo sapiens with 6 samples.

Results

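The plasminogen activators, their receptor and their inhibitors were followed in ovarian carcinoma cells that express BARD1 and in control cells. The members were the rows of the deposited count table named PLAU, PLAT, PLAUR, SERPINE2 and SERPINB2, which are 5 of 58735 genes, and all 5 had enough counts to be tested. BARD1-expressing cells (3 libraries) came from a line transduced with a lentivirus that carries the BARD1 reading frame, and control cells (3 libraries) have the genotype label control. All 6 libraries are labelled as stable cells at 48 h, and the labels do not say what the control cells carry or whether either line is 1 clone. The line is OVCAR8ip1 in the titles but SKOV3ip1 under the cell line tag, and the tissue tag speaks of SKOV3ip1 tumors, so the labels conflict on both the line and the material. The series asks how BARD1, the partner of BRCA1, affects genes of tumour vessel growth.

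Plasminogen is an inactive protease of plasma and tissue fluid that is cut to plasmin by urokinase or by tissue plasminogen activator. Plasmin dissolves fibrin, degrades other matrix proteins and activates growth factors and other proteases. The urokinase receptor holds urokinase at the cell surface, and serpins, which trap proteases by forming a covalent complex, restrain both activators. In carcinomas the system is known for its part in invasion and in vessel growth.

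Of the 5 members, 1 rose and 1 fell in BARD1-expressing cells. PLAU, which encodes urokinase, rose 2.27-fold, and SERPINB2, which encodes plasminogen activator inhibitor type 2, fell to 10.5% of its level in control cells. The other 3, PLAT, PLAUR and SERPINE2, did not pass the test. Across all 15400 tested genes 29.0% were called in either direction, 16.5% higher and 12.4% lower, so a count of 2 called among 5 members is near the background. A gene was called at a Benjamini-Hochberg adjusted p under 0.05 in edgeR's quasi-likelihood test, fitted on the whole table. In bulk RNA, fewer cells that express a gene and less of its RNA per cell cannot be told apart.

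The promoter windows of the 2 members that changed and of the receptor are shown because the 3 genes gave different outcomes in the same cells, one higher, one lower and one not called. Each window is 300 bases from RefSeq on GRCh38.p14, 250 before and 50 after an annotated start, written 5′ to 3′ on the gene's own strand. Capitals mark 3 motifs searched on both strands, the Sp1 motif (GGGCGG), the AP-1 motif (TGANTCA) and the core of the TATA box (TATAAA). An ETS motif was searched as well, only in the form CCGGAA, and that form was found in none of the 3 windows. Shorter forms were not searched. The letters of these motifs do not overlap each other in the windows shown.
PLAU (chr10:73910882-73911181, plus strand): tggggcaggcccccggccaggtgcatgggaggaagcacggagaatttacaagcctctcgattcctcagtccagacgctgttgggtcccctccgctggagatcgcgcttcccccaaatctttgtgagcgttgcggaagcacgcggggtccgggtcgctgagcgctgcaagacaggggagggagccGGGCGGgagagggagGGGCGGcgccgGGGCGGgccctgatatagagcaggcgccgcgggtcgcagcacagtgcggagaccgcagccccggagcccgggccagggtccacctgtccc
PLAUR (chr19:43670120-43670419, minus strand): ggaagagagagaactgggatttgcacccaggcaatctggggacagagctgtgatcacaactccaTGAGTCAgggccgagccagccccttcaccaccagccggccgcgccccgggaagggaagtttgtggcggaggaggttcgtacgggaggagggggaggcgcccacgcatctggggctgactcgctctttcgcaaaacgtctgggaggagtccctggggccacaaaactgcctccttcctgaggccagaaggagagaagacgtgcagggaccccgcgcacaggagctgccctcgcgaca
SERPINB2 (chr18:63887455-63887754, plus strand): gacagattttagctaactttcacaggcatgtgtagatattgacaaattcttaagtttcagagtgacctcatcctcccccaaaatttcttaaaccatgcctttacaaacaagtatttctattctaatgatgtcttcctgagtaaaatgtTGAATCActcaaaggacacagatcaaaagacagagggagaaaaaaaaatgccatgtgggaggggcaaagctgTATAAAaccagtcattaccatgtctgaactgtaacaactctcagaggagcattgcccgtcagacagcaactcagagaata

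The PLAU window held 3 GGGCGG matches, which begin 66, 51 and 40 bases before the start, and none of the other motifs. RefSeq lists a second PLAU window, not shown, which held no match to any of the 4. GGGCGG was not particular to the member that rose. SERPINE2, not called, held 1 match in window 1 and 2 in window 2, neither shown. The PLAUR window held 1 TGANTCA match, 186 bases before the start. The SERPINB2 window held 1 TGANTCA match 102 bases before the start and 1 TATAAA match 30 bases before it. Of 35116 RefSeq windows of the same length, 45.0% held GGGCGG, 7.71% TGANTCA, 11.5% TATAAA and 17.2% CCGGAA. The PLAU window had a GC content of 70.0% with 28 CpG dinucleotides, PLAUR 64.0% with 18, and SERPINB2 39.0% with 1. These matches are letters in a window, and no binding was measured.

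Total counts were 12744310 to 24349158 in the BARD1-expressing libraries and 21819199 to 23992482 in the control libraries. Levels are given as CPM, counts per 1e6 counts of the tested genes, after each library's total is multiplied by its TMM scaling factor. The factors (trimmed mean of M values) were 0.995 to 1.01. The floor, set at 3 counts for a gene without reads, was 0.123 to 0.235 CPM over the libraries, before that factor. It covers counting error only. BARD1 itself had 49.0, 44.3 and 45.7 CPM in BARD1-expressing cells, against 17.1, 17.2 and 19.4 CPM in control cells. For the marker counts that follow, the background was 16.5% higher and 12.4% lower over all tested genes. Of 8 epithelial and ovarian carcinoma markers, 6 were tested, 2 were called higher and 1 lower, and KRT8, KRT18 and EPCAM were not called. PAX8, a lineage factor of serous ovarian carcinoma, fell to 91.4 ± 6.09 CPM in BARD1-expressing cells, against 143 ± 8.98 CPM in control cells (SD, n = 3 each). KRT7, a keratin gene, rose by a log2 fold change of 0.34 ± 0.049 (SE). WT1, at 0.966 CPM in BARD1-expressing cells and 0.393 CPM in control cells, was called higher (1.43 ± 0.470), a call lost in 5 of 13 alternatives, with 0.53 without BARD1-expressing 2. Their summed level was 3743 to 3995 CPM in BARD1-expressing cells and 3781 to 3846 CPM in control cells, and MUC16 and KRT19 were at 0 in all 6 libraries. Fibroblast markers summed to 839 to 887 CPM in BARD1-expressing cells and 1015 to 1082 CPM in control cells, nearly all of it COL1A1, with 2 of 3 tested higher, 1 lower, and DCN at 0 in all. Endothelial markers summed to 6.06 to 7.90 CPM in BARD1-expressing cells and 2.06 to 2.10 CPM in control cells. Both tested endothelial markers, ESAM and KDR, were called higher, but KDR lost its call without control 1, control 2 or BARD1-expressing 3, and with single libraries left out its log2 fold change ran from 1.37 to 1.89. CDH5 had 2 reads in BARD1-expressing cells and 1 in control cells, and EMCN had none. Leukocyte markers summed to 0.865 to 2.12 CPM in BARD1-expressing cells and 0.788 to 1.16 CPM in control cells, with PTPRC at 1 read and 0 reads. The part of the endothelial and fibroblast genes in the results below was not tested.

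**Figure D1:**
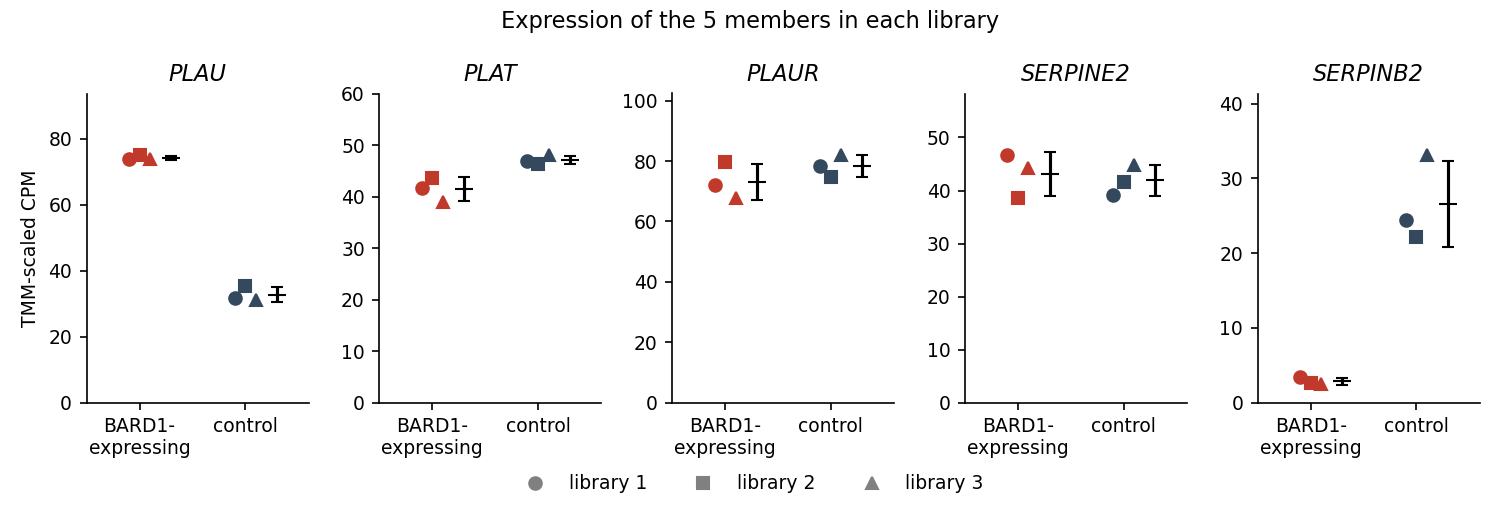
TMM-scaled CPM (vertical axis, each panel from 0 on its own scale) of the 5 members in the 3 BARD1-expressing and the 3 control libraries, 1 symbol per library, with the mean and SD of 3 libraries beside them. PLAU lies at 73.7 to 74.9 CPM in BARD1-expressing cells, above all controls, SERPINB2 at 2.52 to 3.38 CPM, below all controls, and the groups interleave for PLAUR and SERPINE2.

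PLAU (ENSG00000122861, chromosome 10, 73909177 to 73917497, GRCh38) encodes urokinase, the activator that works mainly at the cell surface. It had 73.7, 74.9 and 73.8 CPM in BARD1-expressing libraries 1 to 3, against 31.6, 35.3 and 31.1 CPM in control libraries 1 to 3. The groups did not overlap, and the 3 BARD1-expressing libraries lay closer together than the 3 controls. The means were 74.1 ± 0.675 CPM in BARD1-expressing cells and 32.7 ± 2.25 CPM in control cells (SD, n = 3 each). The log2 fold change was 1.18 ± 0.068 (SE; edgeR adjusted p = 3.33e-12), with a 95% interval of 2.06-fold to 2.50-fold. Permuting the 6 libraries (exact, two-sided, on log2 CPM) gave p = 0.1, which no 3 against 3 design can go below. Of the tested genes, 402 had a higher log2 fold change than PLAU.

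Genes around PLAU moved in both directions. Of 46 other tested genes that start within 2 Mb of it, 9 were called higher and 7 lower, with a median log2 fold change of -0.03. These shares are 19.6% and 15.2%, against 16.5% and 12.4% over all tested genes. The gene C10orf55 lies over PLAU on the opposite strand, and the sources used here do not give whether reads were counted by strand. C10orf55 had 5, 5 and 3 reads in BARD1-expressing libraries and 4, 9 and 2 in control libraries, whereas PLAU had 937, 1814 and 1112 in BARD1-expressing libraries and 767, 805 and 675 in control libraries.

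PLAT (ENSG00000104368, chromosome 8, 42175233 to 42207724) encodes tissue plasminogen activator, the activator best known for dissolving fibrin clots. It had 41.8, 43.6 and 39.0 CPM in BARD1-expressing cells, against 47.0, 46.4 and 48.1 CPM in control cells. All 3 BARD1-expressing libraries lay below all controls, and the groups failed to overlap at 40.9% of all tested genes. The log2 fold change was -0.18 ± 0.069 (SE; edgeR adjusted p = 0.05003), just short of the threshold, with a 95% interval of 0.798-fold to 0.973-fold before adjustment. The call was gained in 5 of 13 alternatives, in which the log2 fold change was -0.19 to -0.23.

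PLAUR (ENSG00000011422, chromosome 19, 43646095 to 43670547) encodes the urokinase receptor, a surface protein held by a lipid anchor. It had 72.1, 79.7 and 67.9 CPM in BARD1-expressing cells, against 78.4, 74.6 and 81.9 CPM in control cells. The groups overlapped, with BARD1-expressing 2 above 2 of the 3 controls. The log2 fold change was -0.09 ± 0.066 (SE; edgeR adjusted p = 0.319), and its 95% interval runs from 0.853-fold to 1.03-fold, so a rise of the size seen for PLAU lies outside it. The misc_RNA gene RN7SL368P inside PLAUR had at most 3 reads in any library.

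SERPINE2 (ENSG00000135919, chromosome 2, 223975112 to 224039319) encodes protease nexin-1, a secreted serpin that inhibits thrombin as well as both activators. It had 46.6, 38.5 and 44.3 CPM in BARD1-expressing cells, against 39.2, 41.7 and 44.9 CPM in control cells. The libraries of both groups interleaved. The log2 fold change was 0.04 ± 0.079 (SE; edgeR adjusted p = 0.786), with a 95% interval of 0.915-fold to 1.15-fold.

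SERPINB2 (ENSG00000197632, chromosome 18, 63871692 to 63903890) encodes plasminogen activator inhibitor type 2, a serpin that inhibits urokinase and is found largely inside cells. It had 3.38, 2.60 and 2.52 CPM in BARD1-expressing cells, against 24.5, 22.2 and 33.1 CPM in control cells. The groups lay far apart, and control 3 was the highest library. The counts behind these values were 43, 63 and 38 reads in BARD1-expressing libraries and 593, 507 and 717 reads in control libraries. Means were 2.83 ± 0.475 CPM in BARD1-expressing cells and 26.6 ± 5.74 CPM in control cells (SD, n = 3 each). The log2 fold change was -3.25 ± 0.168 (SE; edgeR adjusted p = 8.52e-11), a 9.52-fold lower level, with a 95% interval of 0.0821-fold to 0.134-fold. The exact two-sided permutation test again gave p = 0.1. Only 2 tested genes had a lower log2 fold change. SERPINB10, which overlaps the end of SERPINB2 on the same strand, had no read in BARD1-expressing cells and 3 in control 1.

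**Figure D2:**
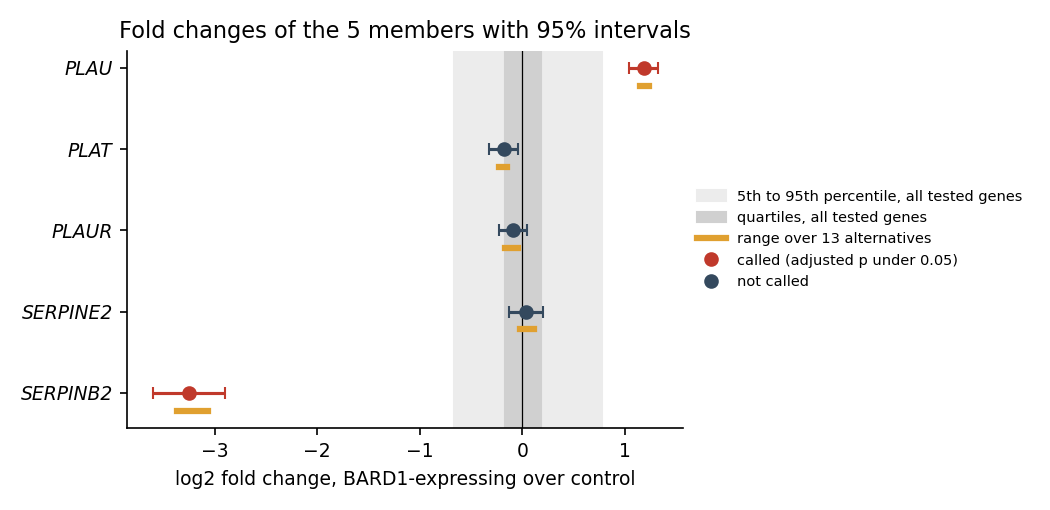
Log2 fold change, BARD1-expressing over control (horizontal axis), of the 5 members, with 95% intervals from the fit, the range over 13 alternative settings below each point, and the spread of all 15400 tested genes as grey bands. PLAU (1.18) and SERPINB2 (-3.25) lie outside the band from the 5th to the 95th percentile, and PLAT, PLAUR and SERPINE2 lie near 0.

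Many genes around SERPINB2 were also lower. Of 227 other tested genes on chromosome 18, 169 (74.4%) were called lower and 4 higher, against 12.4% lower over all tested genes. All 11 other tested genes that start within 2 Mb of SERPINB2 were called lower, with a median log2 fold change of -0.99 and a range from -1.74 (SERPINB7) to -0.81 (TNFRSF11A). The log2 fold change of SERPINB2 minus that local median was -2.26, and minus the median of all tested chromosome 18 genes (-0.66) it was -2.59. Taken library by library against the mean of the controls, on the scale of log2(CPM + 0.5), which makes changes of low genes smaller, the difference from the chromosome median was -2.21, -2.44 and -2.57 in BARD1-expressing libraries 1 to 3. Of the 228 tested genes of the chromosome SERPINB2 had the lowest log2 fold change (-3.25), and the next was AC023301.1 (-2.22), which averaged 0.163 CPM in BARD1-expressing cells and 0.904 CPM in control cells. The part of the chromosome-wide shift in the fall of SERPINB2 was not tested.

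Within 1 Mb, 6 other genes were tested. BCL2, which restrains cell death, had 10.5, 11.5 and 10.1 CPM in BARD1-expressing cells, against 21.9, 19.8 and 19.8 CPM in control cells. KDSR, a gene of sphingolipid synthesis, and VPS4B, of endosome sorting, fell by 0.93 and 0.91 on the log2 scale. SERPINB7 had 8.65, 9.87 and 11.0 CPM in BARD1-expressing cells, against 30.3, 34.2 and 34.7 CPM in control cells. HMSD (-1.39) and SERPINB8 (-0.99) fell as well, and since these 2 overlap each other their counts are uncertain. The other members lay in regions with no such shift: the median log2 fold change of tested genes within 2 Mb was -0.07 around PLAT (20 genes), -0.08 around PLAUR (90 genes) and -0.08 around SERPINE2 (10 genes).

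**Figure D3:**
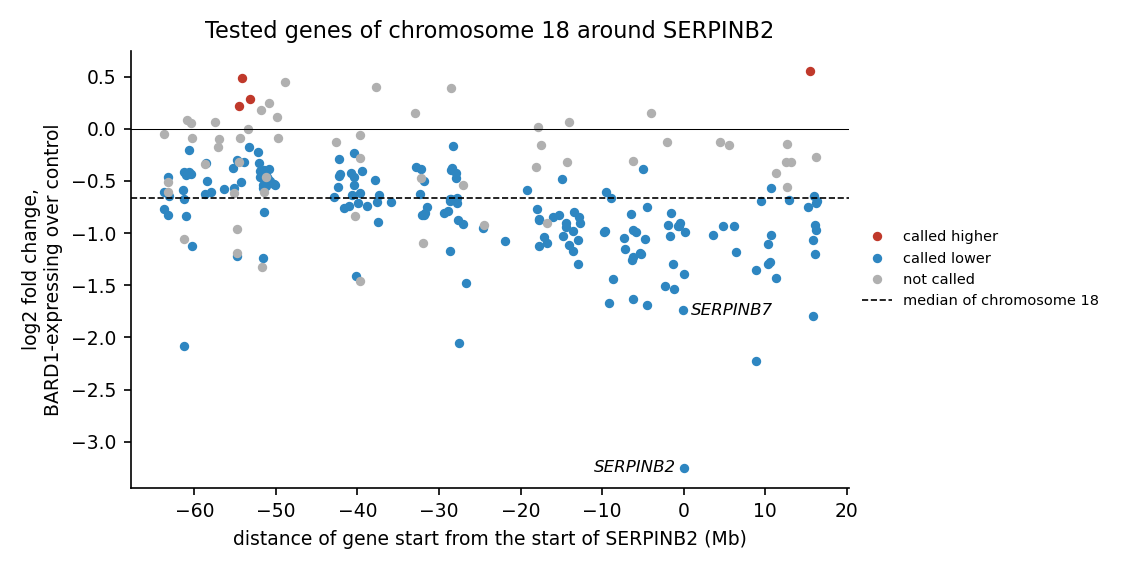
Log2 fold change, BARD1-expressing over control (vertical axis), of the 228 tested genes of chromosome 18 by the distance of their start from that of SERPINB2 in Mb (horizontal axis), with the median of the chromosome dashed. SERPINB2 at -3.25 lies below all others, and SERPINB7, its neighbour, stands at -1.74.

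Read counts were divided by gene length to set the members beside each other, as TPM, a length-scaled share of each library set to a total of 1e6. The deposited lengths run from 2748 bases (SERPINB2) to 8891 bases (SERPINE2) and take in the exons of every isoform, so levels of genes with long unused exons are understated. In BARD1-expressing cells the order was PLAU (99.0 ± 1.35 TPM), PLAUR (64.7 ± 4.42), PLAT (24.7 ± 1.23), SERPINE2 (19.1 ± 2.24) and SERPINB2 (4.07 ± 0.760). In control cells it was PLAUR (67.3 ± 2.54 TPM), PLAU (42.5 ± 3.26), SERPINB2 (37.0 ± 7.64), PLAT (27.3 ± 0.239) and SERPINE2 (18.1 ± 1.12), as mean ± SD of 3 libraries. In control cells PLAU and SERPINB2 overlapped across libraries, whereas in BARD1-expressing cells no neighbours in the order did.

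The ratio of PLAU RNA to SERPINB2 RNA differed between the groups in every library. PLAU was at 20.3, 26.8 and 27.3 times the TPM of SERPINB2 in BARD1-expressing libraries 1 to 3, against 1.20, 1.48 and 0.877 times in control libraries 1 to 3. PLAU RNA per PLAUR RNA, as a ratio of TPM, was 1.54, 1.42 and 1.64 in BARD1-expressing cells, against 0.610, 0.714 and 0.574 in control cells. By the deposited lengths each BARD1-expressing library thus held more PLAU than PLAUR, and each control library held less. The order in BARD1-expressing cells depends on these lengths, 2950 bases for PLAU and 4457 bases for PLAUR. Before division by length, the means there were 74.1 CPM for PLAU and 73.2 CPM for PLAUR. PLAU per SERPINE2 was 5.21 ± 0.574 in BARD1-expressing cells and 2.36 ± 0.239 in control cells (SD, n = 3 each). Summed over the 5 members, levels were 205 to 217 TPM in BARD1-expressing cells and 187 to 202 TPM in control cells.

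**Figure D4:**
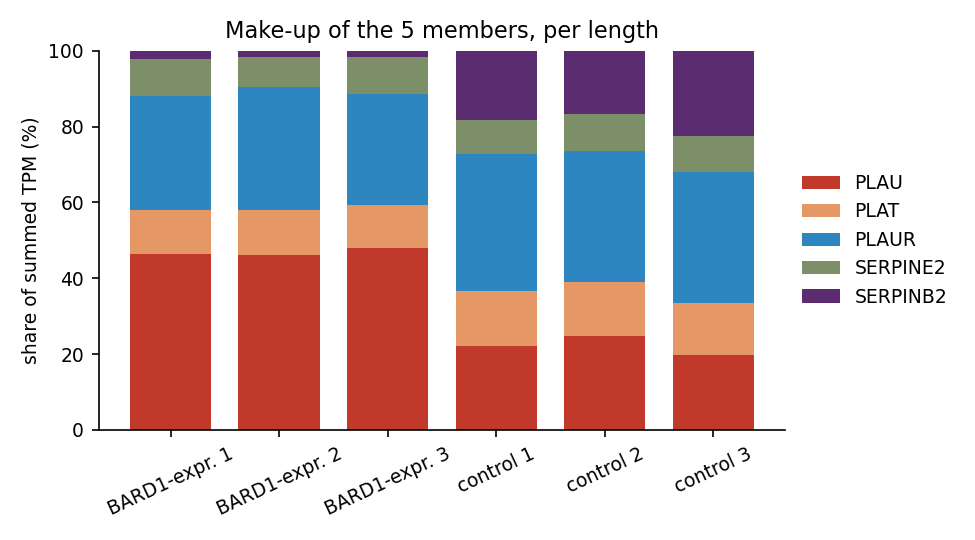
Share of the summed TPM of the 5 members (vertical axis, percent) held by each member in the 3 BARD1-expressing and the 3 control libraries. PLAU holds 46.8 ± 1.09% in BARD1-expressing cells and 22.2 ± 2.43% in control cells, and SERPINB2 1.92 ± 0.313% and 19.2 ± 3.06% (SD, n = 3 each).

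Other genes of the plasminogen system were mostly higher or not called. Of 22 listed genes, 14 were tested, 7 rose and none fell, with a median log2 fold change of 0.35, against a median of -0.00268 and 16.5% called higher over all tested genes. The collagen receptor gene MRC2, whose product associates with the urokinase receptor, had 164 ± 6.45 CPM in BARD1-expressing cells and 90.4 ± 3.98 CPM in control cells (SD, n = 3 each). LRP1, an endocytic receptor that clears complexes of activator and inhibitor, had 132 ± 15.8 CPM in BARD1-expressing cells and 97.9 ± 1.89 CPM in control cells. The mannose 6-phosphate receptor gene IGF2R (0.32 ± 0.051), the related endocytic receptor VLDLR (0.76 ± 0.131) and the clotting factor gene F12 (0.49 ± 0.093) rose too, as log2 fold changes ± SE. Genes for plasminogen-binding proteins did not pass, namely ANXA2 (0.06 ± 0.044), its partner S100A10 (0.01 ± 0.050), ENO1 (-0.03 ± 0.044) and PLGRKT (0.15 ± 0.147). PLG, the substrate gene, had no read in any library.

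Among genes of coagulation and thrombin signalling, 9 of 17 were tested, 2 rose and 1 fell (median log2 fold change 0.38). The background was 16.5% higher and 12.4% lower over all tested genes. The median is the value of F10, not called, at 0.658 CPM in BARD1-expressing cells and 0.514 CPM in control cells. Summed over the list, levels were 936 to 982 CPM in BARD1-expressing cells and 1102 to 1261 CPM in control cells, most of it F3. The thrombin receptor gene F2R had 31.0 ± 2.78 CPM in BARD1-expressing cells and 14.5 ± 1.99 CPM in control cells (SD, n = 3 each). F3, which encodes tissue factor, the starter of coagulation, fell to 739 ± 22.9 CPM in BARD1-expressing cells, against 1011 ± 85.2 CPM in control cells. TFPI2, a Kunitz inhibitor that acts on plasmin, rose by a log2 fold change of 0.26 ± 0.062, whereas F8 (0.47 ± 0.231) and TFPI (0.83 ± 0.453) were not called.

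The clade B serpins related to SERPINB2 changed in both directions. Of 12 others, 5 were tested, 2 rose and 2 fell, and 5 had no read in any library. The background was 16.5% higher and 12.4% lower over all tested genes. The 2 that fell, SERPINB7 and SERPINB8, lie on chromosome 18, and none of the 3 tested on chromosome 6 was called lower. SERPINB9, which encodes a granzyme B inhibitor, had 3.14 ± 0.921 CPM in BARD1-expressing cells and 0.285 ± 0.273 CPM in control cells (SD, n = 3 each), with 2 of 3 controls at the floor. Its log2 fold change of 3.44 ± 0.414 was 3.06 to 4.52 with 1 library left out, highest without control 3. SERPINB1 (0.24 ± 0.071) rose, a call lost without control 1, and SERPINB6 (-0.03 ± 0.061) did not pass.

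Of 12 surface partners of the urokinase receptor, 10 were tested, 4 rose and 1 fell (median log2 fold change 0.12). The background was 16.5% higher and 12.4% lower over all tested genes. PDGFRB (1.51 ± 0.129), also counted among the fibroblast markers, and the integrin genes ITGB2 (0.85 ± 0.135), ITGA3 (0.31 ± 0.052) and ITGB3 (1.75 ± 0.453) rose. The call of ITGB3, at 1.06 CPM in BARD1-expressing cells and 0.307 CPM in control cells, was lost without BARD1-expressing 3. CAV1, the caveolin gene, fell by 0.19 on the log2 scale, a call lost without control 2. The tested partners not called were ITGB1 (0.13 ± 0.056), ITGAV (0.05 ± 0.056), ITGA5 (0.11 ± 0.063), EGFR (-0.02 ± 0.048) and ITGAM (-0.88 ± 0.421). ITGAM stood at 0.454 CPM in BARD1-expressing cells and 0.820 CPM in control cells.

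Of 12 transcription factor genes known from studies of the PLAU and PLAUR promoters, all were tested, 6 rose and 1 fell (median log2 fold change 0.19). The background was 16.5% higher and 12.4% lower over all tested genes, with a median of -0.00268. EGR1, an immediate early factor, had 12.05 ± 1.46 CPM in BARD1-expressing cells and 3.00 ± 0.226 CPM in control cells (SD, n = 3 each). The AP-1 genes FOSL2 (0.62 ± 0.051) and JUNB (0.66 ± 0.102) and the ETS factor ETS1 (0.34 ± 0.050) rose, and so did NFKB1 (0.22 ± 0.069), whose call was lost without control 1, BARD1-expressing 2 or BARD1-expressing 3. The member that fell was JUN (-0.14 ± 0.050), named after its values were seen, and it lost its call in 6 of 13 alternatives. FOSL1 (0.16 ± 0.055) also rose, with overlapping groups and a call lost with the replicate block and without control 1. Not called were FOS (0.42 ± 0.279), JUND (-0.07 ± 0.065), ETS2 (-0.09 ± 0.058), RELA (-0.12 ± 0.053) and SP1 (0.07 ± 0.052). FOSL1 and the genes not called were likewise named after their values were seen.

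Several of the genes that rose lie on chromosome 5, where 32.4% of 726 tested genes were called higher, against 16.5% over all tested genes. Around EGR1, 29 of 36 other tested genes that start within 2 Mb were called higher and 0 lower, with a median log2 fold change of 0.61. Around PDGFRB it was 26 higher and 1 lower of 36, with a median of 0.43. F2R, F12 and the procollagen protease gene ADAMTS2 are on the same chromosome, but the median log2 fold change of tested genes within 2 Mb was -0.04 around F2R, -0.06 around F12 and -0.06 around ADAMTS2. The part of the shift around EGR1 and PDGFRB in their rise was not tested.

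**Figure D5:**
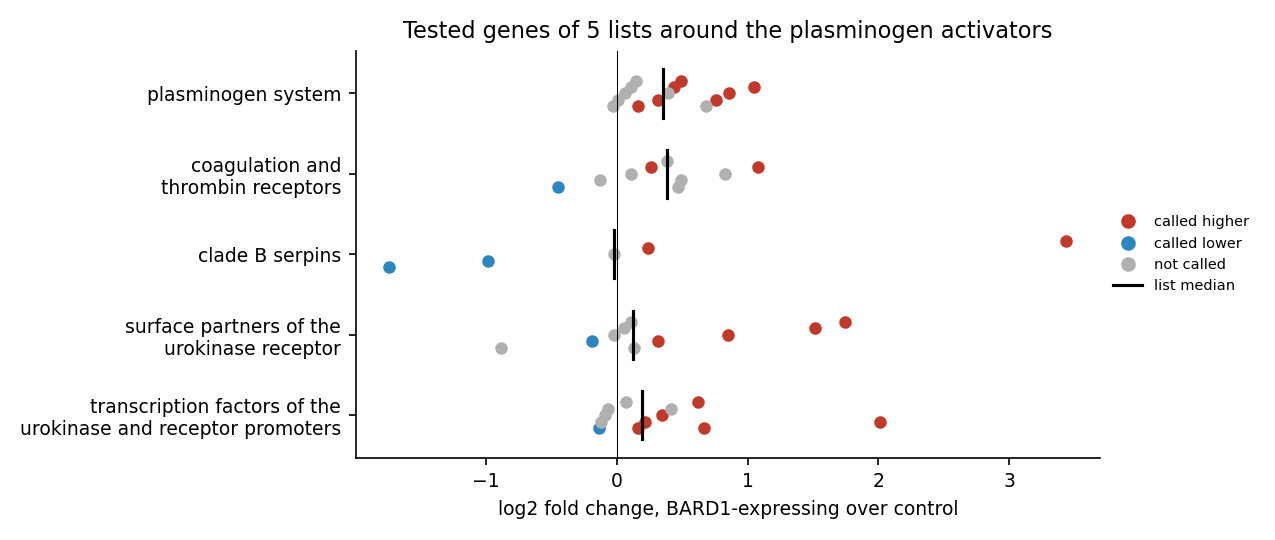
Log2 fold change, BARD1-expressing over control (horizontal axis), of the tested genes of 5 lists (1 point per gene, coloured by call, list median as a black bar). Medians lie at 0.35 for the plasminogen system, 0.38 for coagulation, -0.03 for clade B serpins, 0.12 for receptor partners and 0.19 for the transcription factors. The coagulation median is F10, a gene under 1 CPM that was not called.

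The genes whose pattern was most like that of PLAU were FBLN1, which encodes a fibulin of the matrix, COL4A1, a type IV collagen chain, and ADAMTS2. Likeness was the root mean square difference of log2 CPM, each gene set to its control mean, over the 6 libraries and 10385 protein-coding genes with at least 5 CPM. It was 0.0428, 0.0485 and 0.0550 log2 units for these 3. FBLN1 had 68.2 CPM in BARD1-expressing cells and 30.6 CPM in control cells. For SERPINB2 the nearest were MARCHF9, ZNF404 and FN1, the fibronectin gene, at 0.336, 0.590 and 0.599 log2 units, so its pattern had no close match. None of these 3 lies on chromosome 18. Likeness depends on the size of a change, and no other tested gene of that chromosome had a log2 fold change below -2.22. The location of the nearest genes therefore does not bear on the chromosome-wide shift.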

How the data were processed

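RNA of 6 libraries was sequenced after poly(A) selection, per the labels' protocols, which name a directional and a non-directional library without saying which was used. The authors' deposited table holds raw counts per gene with gene length and GRCh38 position, and the submitters' processing notes name featureCounts 1.5.0-p3, HISAT2 2.0.5 and DESeq2 1.20.0 without roles. The sources used here do not give the annotation release or how shared reads were handled. Columns were matched to libraries by description.

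Counts were filtered with filterByExpr (15400 genes kept), scaled by TMM factors (trimmed mean of M values) and tested with edgeR 4.0.16 in R 4.3.3 (robust quasi-likelihood, group only, Benjamini-Hochberg over all tested genes). SE is the log2 fold change over the root of F. CPM uses TMM, TPM the deposited lengths, and likeness, permutations and the library-wise chromosome 18 differences add a pseudocount of 0.5. The members and 9 gene lists were chosen with earlier results of these data known. Named are the members, up to 5 genes per list with the smallest p, the genes most like the called members, tested genes within 1 Mb of SERPINB2, and others chosen after their values were seen. Lists are described by counts, with no test. Alternatives were 3 other scalings, no filter, DESeq2 1.42.0, no robust estimation, a replicate block and each library left out. The labels call replicates biological without naming separate cultures, so p-values speak only of the spread among these 6 libraries, which may be technical. No pair of libraries was identical (chi-square per degree of freedom 3.41 to 8.11).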

Additional observations from a re-analysis of the deposited data

How the results depend on the processing

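PLAU and SERPINB2 kept their direction and call in all 13 alternatives, with log2 fold changes of 1.15 to 1.24 and -3.37 to -3.07. PLAUR was not called in any (-0.17 to -0.05). PLAT was called lower with DESeq2 size factors (-0.19), with scaling by total counts (-0.19) and with TMM computed without chromosome 18 and mitochondrial genes (-0.19), so that 2 members were called lower in each, and it ran from -0.23 to -0.15 with 1 library left out, where 1 or 2 members were called lower. SERPINE2, never called, ran from -0.029 to 0.11 with 1 library left out and was below 0 without control 1 (-0.018) or BARD1-expressing 1 (-0.029). The difference between SERPINB2 and the chromosome 18 median moved by less than the spread between libraries. SERPINB6, never called, ran from -0.067 to 0.023 with 1 library left out.

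Same-numbered libraries did not deviate together (correlations -0.16, -0.03 and -0.02), so the numbers were not taken as pairs. With the replicate block 2296 genes were called higher and 1694 lower, against 2545 and 1915, and with this block 0 transcription factor genes were called lower and 1 ovarian marker was called higher. DESeq2's Wald test also called 1 ovarian marker higher. With 1 library left out, calls ranged from 0 to 1 for transcription factors lower, 1 to 2 for ovarian markers higher, 1 to 2 for endothelial markers higher, 1 to 2 for clade B serpins higher and 0 to 1 for receptor partners lower. Counting depth limits genes near 1 CPM most.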
